A study of Mus musculus with 62 samples.

Results

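The 30 genes described here encode proteins of the myelin sheath, enzymes and transporters of the oligodendrocyte, and the transcription factors that set the identity of this cell. They were taken as a list of mouse Entrez identifiers and looked up in the count tables of the prefrontal cortex and the striatum. All 30 were listed in both tables, which share 17378 genes, and all 30 passed the filter on low counts among the 15402 genes tested in the fit of both regions, the 14838 tested in the prefrontal cortex and the 15118 tested in the striatum. The tables came from RNA sequencing of tissue punches from the brains of female mice of the inbred strain C57BL/6. The mice had been given by mouth the MARBLES mixture of polychlorinated biphenyls (PCBs, persistent industrial chemicals) or vehicle. Each region had 4 vehicle libraries (dose 0), 5 libraries of the 0.1 mg/kg group and 6 each of the 1 mg/kg and 6 mg/kg groups, which makes 42 libraries. The age of the mice, the length of exposure and whether each library came from a separate mouse are not given in the sources used here. The p-values therefore measure the spread between libraries, part of which may be technical.

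Oligodendrocytes are the glial cells that wrap axons of the brain in myelin, a compacted stack of membrane that speeds the conduction of nerve impulses. They arise from precursor cells under the control of the transcription factors Olig1, Olig2, Nkx2-2 and Sox10, and the factor Myrf then switches on the genes of the myelin proteins. The striatum is crossed by bundles of myelinated fibres of the internal capsule, whereas the prefrontal cortex is grey matter that is sparsely myelinated in rodents. Myelin genes are studied in PCB toxicology because thyroid hormone promotes the maturation of oligodendrocytes and some PCBs alter thyroid hormone levels.

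Promoter sequence is shown for some of the genes because the whole list differed between the regions in 1 direction and because Sox10 and Myrf are themselves members. RefSeq windows (build GRCm38.p6) from 250 bases before to 50 bases after the start were found for 22 of the 30 genes, 30 windows in all, with more than 1 start for some genes. The windows were searched on both strands for the SOX words AACAAAG and AACAATG and for the MYRF words CTGGCAC and CTGGTAC. A SOX word was present in 6 of the 30 windows (20%), against 9.36% of all 32851 windows, and a MYRF word was also present in 6 of 30 (20%), against 7.1% of all. The genes with a SOX word were Mobp, Cnp, Olig2, Tmem88b, Enpp6 and Apod, and those with a MYRF word were Mag, Mog, Cnp, Hapln2 and Opalin. A match describes the letters only and is not a binding site. Below are 60-base stretches that lie before the start, 5′ to 3′ on the strand of the gene, with each word in capitals (its reverse complement where it lies on the other strand). Words of the 2 kinds share no bases in them. The Mobp stretch (chr9:120149492-120149551, plus strand) holds 4 SOX words. The Cnp stretches are at chr11:100574744-100574803 (SOX) and chr11:100574831-100574890 (MYRF), both on the plus strand. The Mag stretch is at chr7:30914923-30914982, the Mog stretch at chr17:37023449-37023508 and the Hapln2 stretch at chr3:88027623-88027682, all on the minus strand.
Mobp, SOX words: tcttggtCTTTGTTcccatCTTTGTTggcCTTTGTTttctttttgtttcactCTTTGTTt
Cnp, SOX word: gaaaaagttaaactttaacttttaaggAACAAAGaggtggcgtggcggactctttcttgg
Cnp, MYRF word: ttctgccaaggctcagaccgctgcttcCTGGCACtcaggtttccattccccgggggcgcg
Mag, MYRF word: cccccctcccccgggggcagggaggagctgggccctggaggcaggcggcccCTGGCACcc
Mog, MYRF word: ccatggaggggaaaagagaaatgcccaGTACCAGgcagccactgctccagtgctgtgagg
Hapln2, MYRF word: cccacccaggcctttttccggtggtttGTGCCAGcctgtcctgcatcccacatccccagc

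Library totals were 8722232 to 12135200 counts in the prefrontal cortex and 8283032 to 12019651 counts in the striatum. The markers of each labelled region went with the labels on balance. All 8 markers of striatal projection neurons were higher and all 6 markers of cortical excitatory neurons were lower in the striatum in the fit described below, but neither list was confined to its region. The summed striatal markers were at 969 to 3121 CPM (counts per library of a fixed size, corrected for library composition) in the prefrontal cortex against 2668 to 6421 CPM in the striatum. The summed cortical markers were at 1492 to 2539 CPM in the prefrontal cortex and at 106 to 1725 CPM in the striatum. In the striatum, 4 libraries were above 600 CPM for the cortical markers (vehicle replicate 8 and replicates 46, 48 and 50 at 1 mg/kg). Another 4 were above 1000 CPM for the markers of the choroid plexus, the tissue in the ventricles that makes cerebrospinal fluid (replicates 28 of the 0.1 mg/kg group, 41 and 45 of the 1 mg/kg group and 52 of the 6 mg/kg group), with replicate 45 at 4290 CPM. Counts by p-value within the striatum, for interactions and between regions in vehicle are also given without these libraries where the count moved. Counts without overlap, counts between regions at single doses and counts for other gene lists are given with these libraries only.

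The oligodendrocyte and myelin genes were more abundant in the striatum than in the prefrontal cortex, and the whole list moved in the same direction. In vehicle libraries all 30 log2 differences were positive, with a median of 1.01 against 0.02 for all genes tested, and 28 of the 30 passed at an adjusted p of 0.05 by edgeR's quasi-likelihood test. Of all genes tested in that comparison, 10.6% passed with a higher level in the striatum. With the region difference averaged over the 4 dose groups, 30 of 30 passed, against 29.1% of all genes higher and 27.1% lower in the striatum, and the median log2 difference was 1.02. The 30 genes together took 0.261 to 0.417% of the counts of a prefrontal cortex library and 0.495 to 1.25% of the counts of a striatum library, so the ranges did not overlap. In bulk tissue, fewer cells of a type and less RNA per cell cannot be told apart.

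**Figure D1:**
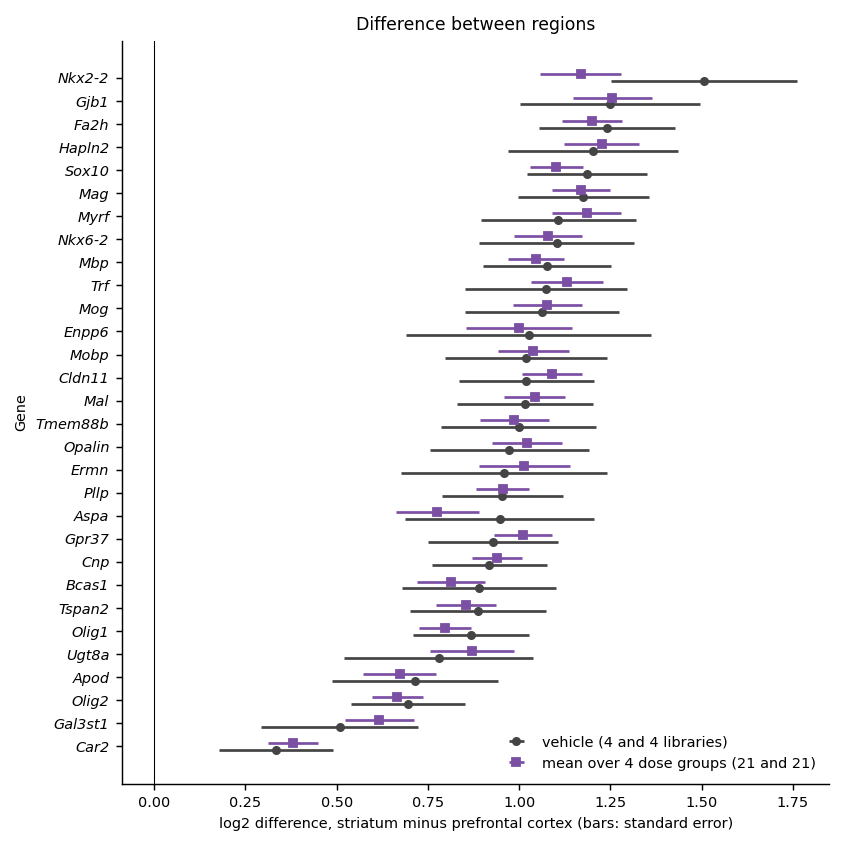
Log2 difference of each of the 30 genes between striatum and prefrontal cortex (horizontal axis), in vehicle libraries (circles, 4 against 4) and averaged over the 4 dose groups (squares, 21 against 21), with bars of 1 standard error. All points lie above 0, from 0.33 for Car2 to 1.51 for Nkx2-2 in vehicle.

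The largest differences in vehicle were those of Nkx2-2, Gjb1, Fa2h, Hapln2, Sox10 and Mag, a mix of transcription factors, sheath proteins and a lipid enzyme. Nkx2-2, a transcription factor of the oligodendrocyte lineage, was at 2.39, 2.93, 4.33 and 4.34 CPM in the prefrontal cortex and at 9.14, 9.19, 10.5 and 10.8 CPM in the striatum, without overlap. Its log2 difference was 1.51 (SE 0.255, edgeR adjusted p 2.63e-05). Sox10, the transcription factor that is kept throughout the lineage, was at 32.5, 33.7, 39.0 and 49.9 CPM against 75.1, 75.6, 86.1 and 116 CPM. Its log2 difference was 1.19 (SE 0.164, edgeR adjusted p 1.12e-06), the smallest p of the list. Mag, myelin-associated glycoprotein, sits on the innermost myelin layer facing the axon. It was at 95.7, 103, 119 and 161 CPM against 212, 261, 287 and 321 CPM, a log2 difference of 1.18 (SE 0.179, edgeR adjusted p 6.12e-06).

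The other three large differences belonged to a gap junction protein, a lipid enzyme and a matrix linker. Gjb1 (connexin 32), which joins the layers of the sheath, was at 6.00, 6.84, 7.71 and 11.5 CPM in the prefrontal cortex and at 13.2, 18.4, 20.3 and 23.95 CPM in the striatum, a log2 difference of 1.25 (SE 0.247, edgeR adjusted p 0.000211). Fa2h adds the hydroxyl group to the fatty acids of myelin galactolipids. It was at 21.8, 27.8, 28.9 and 36.3 CPM against 53.1, 57.6, 71.8 and 88.2 CPM, a log2 difference of 1.24 (SE 0.187, edgeR adjusted p 4.89e-06). Hapln2, a hyaluronan link protein of the matrix at nodes of Ranvier, was at 11.4, 13.5, 17.3 and 23.7 CPM against 30.9, 33.6, 40.3 and 45.9 CPM, a log2 difference of 1.20 (SE 0.233, edgeR adjusted p 0.000173). None of these 6 genes had a striatum library in vehicle as low as any prefrontal cortex library.

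The smallest differences were those of Car2 and Gal3st1, and these 2 genes did not pass in vehicle. Car2, carbonic anhydrase 2, which oligodendrocytes share with other brain cells, was at 107, 129, 138 and 139 CPM in the prefrontal cortex and at 133, 159, 176 and 179.5 CPM in the striatum. The groups overlapped, and the log2 difference was 0.33 (SE 0.155, edgeR adjusted p 0.128). Gal3st1, which sulphates galactosylceramide to make sulphatide, was at 9.51, 12.2, 12.2 and 12.5 CPM against 13.3, 14.2, 18.2 and 20.1 CPM, a log2 difference of 0.51 (SE 0.216, edgeR adjusted p 0.0896). Averaged over the dose groups the log2 differences of Car2 (0.38, SE 0.069, edgeR adjusted p 8.33e-06) and Gal3st1 (0.62, SE 0.095, edgeR adjusted p 4.44e-07) were close to those in vehicle and passed. In vehicle both passed with only the groups compared in the fit (edgeR adjusted p 0.0484 for Car2 and 0.0338 for Gal3st1) and with the striatum libraries high in cortical neuron markers left out (0.0152 and 0.0396).

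Olig2, Apod, Ugt8a and Olig1 had the next smallest differences and passed. Olig2, the factor that specifies precursors and remains in mature cells, was at 21.7, 24.3, 29.2 and 31.0 CPM in the prefrontal cortex and at 37.4, 39.9, 47.2 and 47.3 CPM in the striatum, a log2 difference of 0.69 (SE 0.156, edgeR adjusted p 0.000942). Olig1, its neighbour on chromosome 16, was at 89.3, 89.6, 108 and 129 CPM against 169, 181, 190 and 218 CPM, a log2 difference of 0.87 (SE 0.159, edgeR adjusted p 7.71e-05). Both were separated between the regions. Apod, the lipid carrier apolipoprotein D, was at 89.7, 93.5, 99.1 and 105 CPM against 133, 144, 177 and 183 CPM, a log2 difference of 0.71 (SE 0.226, edgeR adjusted p 0.0192). Ugt8a makes galactosylceramide, the main myelin galactolipid, and was at 30.045, 30.1, 42.04 and 44.98 CPM against 47.7, 60.9, 61.7 and 82.0 CPM, a log2 difference of 0.78 (SE 0.260, edgeR adjusted p 0.0265). Apod and Ugt8a were separated between the regions but did not pass when vehicle replicate 3, 4 or 7 was left out, with edgeR adjusted p of 0.0626 to 0.100 for Apod and 0.122 to 0.125 for Ugt8a.

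The remaining 18 genes lay between these extremes, with log2 differences in vehicle from 0.89 to 1.11 and edgeR adjusted p from 1.59e-05 for Mbp to 0.0234 for Enpp6. Among sheath proteins, the median over 21 libraries of each region was 42.3 CPM in the prefrontal cortex and 88.4 CPM in the striatum for Mog, the glycoprotein on the outer face of the sheath. It was 160 and 316 CPM for Mal, a raft protein of myelin sorting, and 107 and 230 CPM for Cldn11, the claudin that seals the sheath with tight junctions. Ermn (ermin, a cytoskeletal protein of mature oligodendrocytes) had medians of 37.0 and 67.1 CPM and a range in the striatum of 31.3 to 166 CPM, which overlapped the 20.1 to 47.7 CPM of the prefrontal cortex. The factors Myrf and Nkx6-2 had medians of 41.2 and 101 CPM and of 24.03 and 51.2 CPM, and log2 differences in vehicle of 1.11 (SE 0.212, edgeR adjusted p 0.000150) and 1.10 (SE 0.213, edgeR adjusted p 0.000159). These lay between the 0.87 of Olig1 and the 1.19 of Sox10. The tetraspanin Tspan2 (82.9 and 141 CPM), the receptor Gpr37 (55.4 and 112 CPM) and Bcas1 (72.6 and 124 CPM) had log2 differences of 0.89, 0.93 and 0.89.

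In vehicle, every striatum library was above every prefrontal cortex library for 27 of the 30 genes, against 11.8% of all genes tested. The exceptions were Car2, Aspa (the aspartoacylase that frees acetate for myelin lipids) and Enpp6 (a phosphodiesterase of newly formed oligodendrocytes). In each, the overlap came from striatum replicate 8, a library high in cortical neuron markers, at 133, 9.67 and 5.71 CPM. The other striatum vehicle libraries were at 159, 17.4 and 9.33 CPM or more. The highest prefrontal cortex vehicle libraries were at 139, 11.8 and 6.44 CPM. Over all 42 libraries the regions did not overlap for 9 genes, Mbp, Mag, Cnp, Mal, Cldn11, Gjb1, Sox10, Fa2h and Gpr37, against 1.15% of all genes. Without the striatum libraries high in cortical neuron markers, Mobp, Mog, Ermn and Trf did not overlap either. Their lowest remaining striatum libraries were at 547, 56.6, 52.8 and 330 CPM, and their highest prefrontal cortex libraries at 485, 51.4, 47.7 and 276 CPM. The share of all genes was not computed without these libraries. The library titles carry numbers that recur in both regions. The striatum library was the higher of the same-numbered pair in 21 of 21 numbers for 25 genes, against 5.30% of all genes, and in 20 for Apod, 19 for Car2, 18 for Aspa and for Ugt8a and 17 for Enpp6.

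At single doses the same direction was found for all 30 genes. At 6 mg/kg 27 genes passed with a higher level in the striatum, against 24.1% of all genes, and the rest were Ugt8a (log2 difference 0.47, edgeR adjusted p 0.064), Aspa (0.44, 0.0727) and Enpp6 (0.55, 0.0845). At 1 mg/kg 30 passed, against 14.4%, and at 0.1 mg/kg 27 passed, against 14.0%. The genes that did not pass at 0.1 mg/kg were Aspa, Car2 and Apod, with edgeR adjusted p of 0.126, 0.116 and 0.067. The median log2 difference of the list was 1.02 for 6 mg/kg, 1.21 for 1 mg/kg and 0.88 for 0.1 mg/kg.

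**Figure D2:**
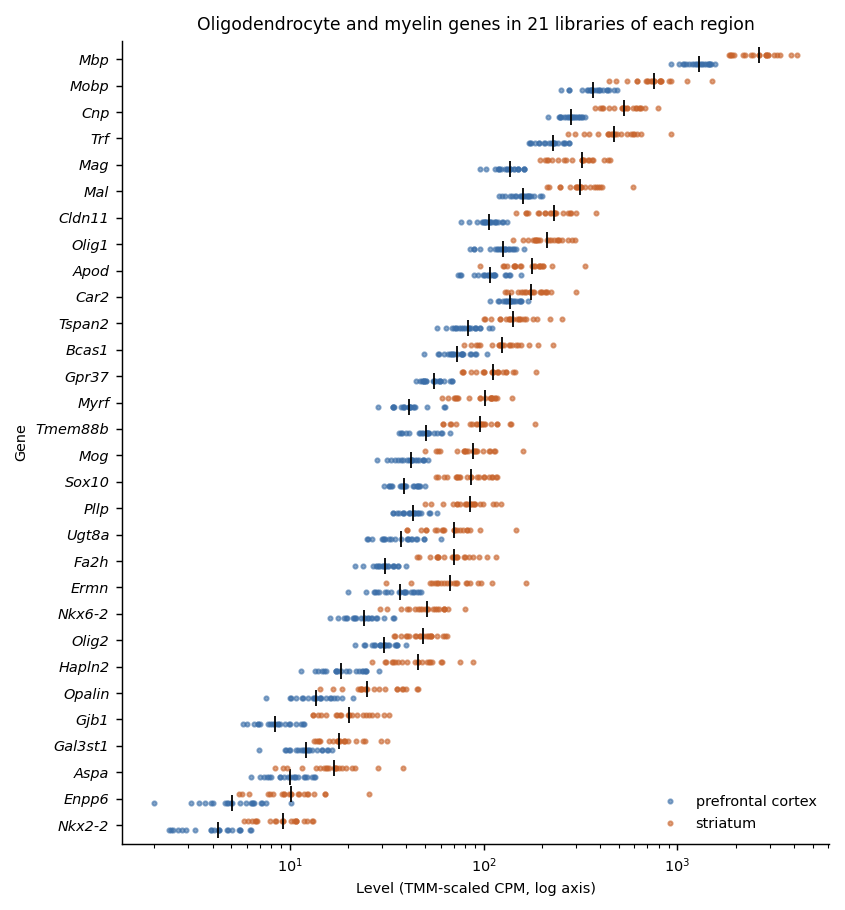
Level of each gene in every library (CPM on a log axis), with the 21 prefrontal cortex and the 21 striatum libraries as points and the median of each region as a black tick. Mbp has the highest and Enpp6 and Nkx2-2 the lowest medians, and the striatum median is the higher for every gene.

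The order of the genes by level was much the same in the regions. Levels between genes are compared here as CPM divided by the length in kilobases of the longest annotated transcript. On this scale the 10 highest genes of the striatum and of the prefrontal cortex were the same 10. Mbp, myelin basic protein, which seals the inner faces of the membrane, was the highest, with a median of 268.5 per kilobase in the prefrontal cortex (193 to 326 over 21 libraries) and 549 in the striatum (383 to 865). Mobp (medians 111 and 230), another small basic protein of compact myelin, and Cnp (120 and 226), the phosphodiesterase of the channels between the layers, came next. They were followed by Trf (88.5 and 183), the iron carrier transferrin. The fifth gene was Car2 in the prefrontal cortex (76.9) and Mag in the striatum (132). Within single libraries Mbp was above Mobp and Cnp in 21 of 21 of each region. Mobp and Cnp were each above Trf in 21 of 21 prefrontal cortex and 20 of 21 striatum libraries. The order of Mobp and Cnp was not fixed, with Cnp the higher in 14 prefrontal cortex and 12 striatum libraries. The lowest were Nkx2-2 (2.01 and 4.33) and Enpp6 (1.02 and 2.03).

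On the CPM scale in vehicle, Mbp was at 926, 1065, 1147 and 1442 in the prefrontal cortex and at 1894, 2392, 2456 and 2921 in the striatum, without overlap. Mobp was at 250.5, 276, 380 and 443 CPM against 481, 691, 739 and 823 CPM. Cnp was at 216, 246, 261 and 322 CPM against 374, 516, 531 and 550 CPM. For each of these 3 genes and for Trf (172, 184, 192 and 262 CPM against 296, 438, 462 and 509 CPM) the lowest striatum library was replicate 8, which was also the vehicle library highest in cortical neuron markers (1178 CPM).

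The ratio of the striatum median to the prefrontal cortex median over 21 libraries each ran from 1.28 for Car2 to 2.49 for Hapln2, with a median of 1.98 over the list. The spread was larger in the striatum for 28 of the 30 genes. The coefficient of variation within dose groups (the pooled SD of the 4 groups over the mean of the 21 libraries) had a median of 15.4% in the prefrontal cortex (10.5 to 32.4%) and 23.6% in the striatum (15.4 to 37.5%), and in both regions it was highest for Enpp6.

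In single libraries the list deviated as a block. For each library the number of genes above the median of its region was counted. In the prefrontal cortex it was 0, 9, 3 and 29 of 30 in vehicle replicates 3, 4, 7 and 8, and between 10 and 26 in the 6 libraries at 6 mg/kg. In the striatum it was 7, 18, 15 and 0 in the same vehicle replicates and between 12 and 29 at 6 mg/kg. Striatum replicate 45 (1 mg/kg) was above the median in 30 of 30 genes and the highest library for 21 of them, and it was also the highest in choroid plexus markers. Striatum replicates 8 (vehicle), 25 and 29 (0.1 mg/kg) and 50 (1 mg/kg) were above the median in 0 of 30. Of these, replicates 8 and 50 had the highest summed cortical neuron markers of the striatum (1178 and 1725 CPM), while replicates 25 and 29 were at 300 and 189 CPM, near the median of 281. In the prefrontal cortex the summed striatal neuron markers were highest in vehicle replicate 8 (3121 CPM). They were lowest in replicate 42 at 1 mg/kg (969 CPM, 2 of 30 genes above the median) and in vehicle replicate 3 (1174 CPM). Replicate 48 at 1 mg/kg, at 2828 CPM, was above the median in 4 of 30 genes, and replicate 41 at 1 mg/kg, at 2314 CPM, in 27. The part of these markers in the levels was not tested beyond leaving libraries out.

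**Figure D3:**
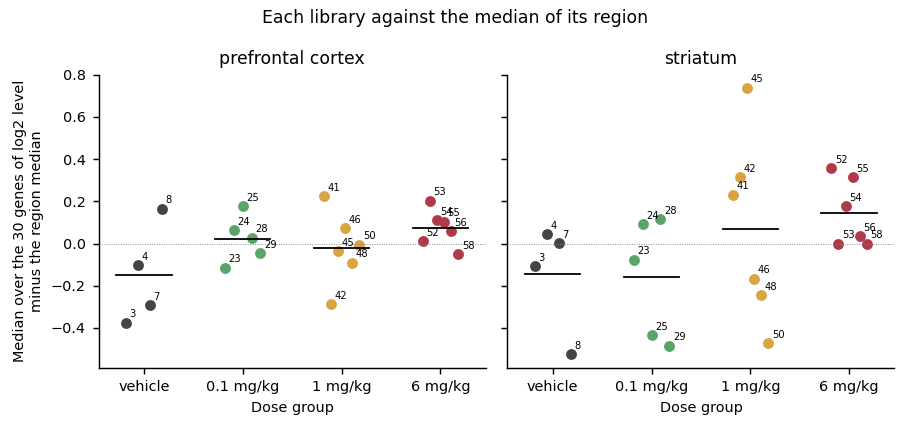
Median over the 30 genes of the log2 level minus the median of the region (vertical axis), for each library (points, with replicate numbers) by dose group, with the group mean as a line. Vehicle libraries run from -0.38 to 0.16 in the prefrontal cortex and from -0.52 to 0.04 in the striatum, and striatum replicate 45 stands at 0.74.

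**Figure D4:**
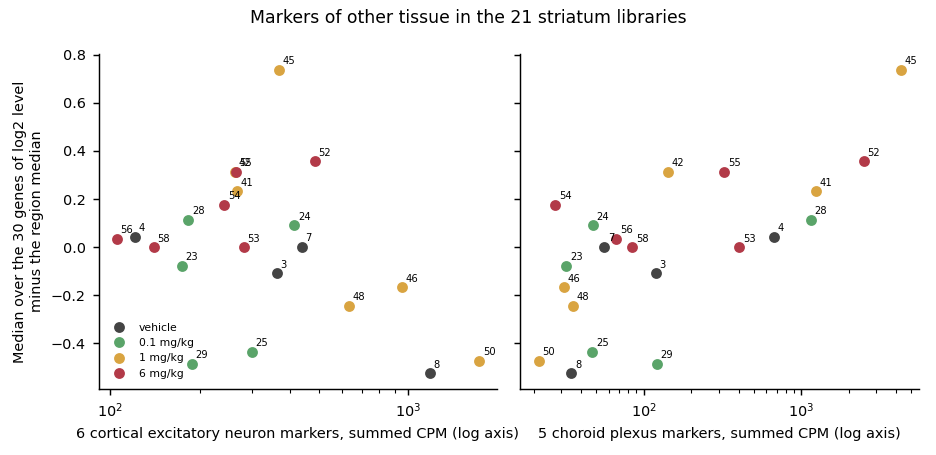
The same deviation in the 21 striatum libraries (vertical axis) against the summed level of the 6 cortical excitatory neuron markers and of the 5 choroid plexus markers (horizontal log axes, CPM), with dose groups in colour. Replicates 8 and 50 lie at the low end with the highest cortical marker sums, and replicate 45 at the high end with the highest choroid plexus sum.

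PCB exposure was compared with vehicle within each region. In the striatum at 6 mg/kg no gene of the list passed by edgeR's adjusted p. The estimates leaned upward: 29 of 30 log2 differences were above 0, with a median of 0.29 against 0.01 for all genes, and 8 had an unadjusted p under 0.05, all higher. Of all genes tested, 0% passed higher and 7.48% were higher at the unadjusted threshold. The 8 were Hapln2, Olig1, Mag, Mbp, Olig2, Opalin, Gal3st1 and Pllp, which include both sheath proteins and the pair of Olig factors.

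Hapln2 had the smallest p. Its striatum libraries were at 30.9, 33.6, 40.3 and 45.9 CPM in vehicle and between 44.3 and 87.9 CPM, with a median of 57.2, at 6 mg/kg. The groups overlapped at 1 library, and the log2 difference was 0.74 (SE 0.203, edgeR adjusted p 0.208). Olig1 was at 169, 181, 190 and 218 CPM in vehicle and between 222 and 296 CPM, median 249, at 6 mg/kg, a log2 difference of 0.44 (SE 0.141, edgeR adjusted p 0.208). Mag was at 212, 261, 287 and 321 CPM against 323 to 447 CPM, median 363, a log2 difference of 0.49 (SE 0.185, edgeR adjusted p 0.232). Mbp was at 1894, 2392, 2456 and 2921 CPM against 2866 to 3864 CPM, median 3211, a log2 difference of 0.43 (SE 0.180, edgeR adjusted p 0.260). Every library at 6 mg/kg was above every vehicle library for Mag, Olig1 and Olig2, 3 of the 30 genes, against 1.51% of all genes. For Mag the lowest library at 6 mg/kg was at 323 CPM and the highest vehicle library at 321 CPM.

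**Figure D5:**
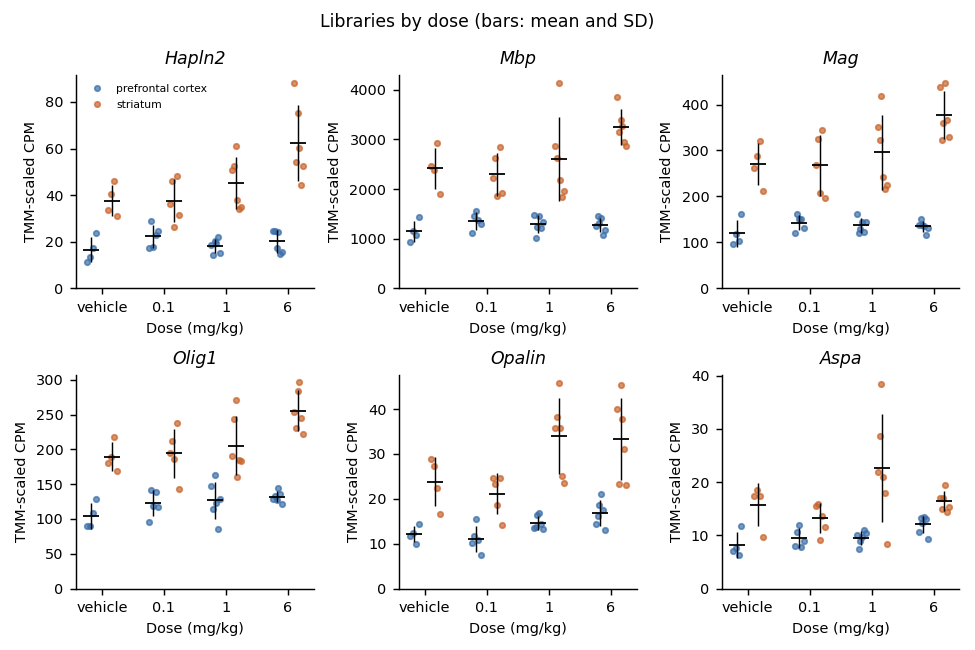
Level of 6 genes by dose (CPM, axes from 0), with points for the libraries of both regions and bars of the group mean and SD. In the striatum Hapln2, Mbp, Mag and Olig1 are highest on average at 6 mg/kg, and for each of them some libraries at 6 mg/kg overlap those of another dose group.

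Several measures of the striatum libraries differed between the same groups. Totals were 10147296 to 10459212 counts in vehicle and 8553800 to 9197051 counts at 6 mg/kg, without overlap. The summed cortical neuron markers were at 121 to 1178 CPM in vehicle and 106 to 485 CPM at 6 mg/kg, all 6 with a negative log2 difference. The summed choroid plexus markers were at 34.8 to 673 CPM and 27.4 to 2501 CPM. The summed blood markers were at 65.9 to 529 CPM and 42.3 to 135 CPM, with all 3 that were tested lower at an unadjusted p under 0.05 (median log2 difference -1.36). The summed astrocyte markers were at 2664 to 2932 CPM in vehicle and 1683 to 2769 CPM at 6 mg/kg. No marker of the cortical or choroid plexus list was at 0 in all libraries of the striatum. The part of depth, blood or astrocyte markers in the difference was not tested. With the libraries high in cortical neuron markers left out, 0 genes passed and 5 were higher at the unadjusted threshold, against 6.87% of all genes, and with those high in choroid plexus markers left out the numbers were 0 and 8, against 8.11%. When GC content and length entered as an offset, 2 were higher at that threshold, against 4.21%. Without vehicle replicate 8 there were 2, against 6.34%, and without vehicle replicate 3 or replicate 52, 54 or 55 at 6 mg/kg there were 5, against 4.86 to 7.61% of all genes. With only the groups compared in the fit the number rose to 12, against 6.56%.

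In the striatum at 1 mg/kg 0 of 30 genes passed and 2 were higher at an unadjusted p under 0.05 (Opalin and Enpp6), against 0% and 3.82% of all genes. Opalin, a membrane glycoprotein of oligodendrocytes, was at 16.6, 22.4, 27.3 and 28.8 CPM in vehicle and between 23.5 and 45.7 CPM, median 35.8, at 1 mg/kg, a log2 difference of 0.51 (SE 0.214, edgeR adjusted p 0.676). Enpp6 was at 5.71, 9.33, 10.1 and 11.2 CPM against 7.94 to 25.8 CPM, a log2 difference of 0.61 (SE 0.291, edgeR adjusted p 0.676). The groups overlapped for both genes. Aspa (log2 difference 0.51) and Car2 (0.29) were the next, with edgeR adjusted p of 0.684 and 0.700. The 1 mg/kg group holds replicate 45, above the median in 30 of 30 genes, and replicate 50, above it in 0. Without the libraries high in cortical neuron markers 16 genes were higher at an unadjusted p under 0.05 in this comparison, against 4.92% of all genes, with 0 passing. Without those high in choroid plexus markers 0 were higher and 2 were lower, against 2.59% of all genes lower. Without replicate 50 alone the number was 12, against 7.16%, and without replicate 45 alone it was 0, against 2.67%. It was 0 without vehicle replicate 7 or 8, 1 without vehicle replicate 3 or replicate 42 and 4 without replicate 48, against 1.80 to 4.64% of all genes.

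At 0.1 mg/kg 0 of 30 striatum genes passed and 0 were under the unadjusted threshold, against 0% and 1.23% of all genes higher. The log2 differences were split, 15 above and 15 below 0, with a median of 0.00. With the libraries high in cortical neuron markers left out 2 genes were lower at the unadjusted threshold, against 0.964% of all genes, and with those high in choroid plexus markers left out 2 were, against 1.57%. The smallest p was that of Nkx2-2, at 9.14, 9.19, 10.5 and 10.8 CPM in vehicle and 5.82, 6.06, 6.59, 8.44 and 10.7 CPM at 0.1 mg/kg, a log2 difference of -0.40 (SE 0.197, edgeR adjusted p 1.00). Sox10 (-0.22), Fa2h (-0.18) and Aspa (-0.25) followed, also with edgeR adjusted p of 1.00.

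The highest and the lowest exposed group were also compared. The log2 differences of this contrast do not use the vehicle libraries, but the filter, the scaling and the estimate of the spread do. In the striatum Hapln2 was the gene of the list that passed, 1 of 30, against 1.66% of all genes passing with a higher level at 6 than at 0.1 mg/kg. It was at 26.4, 31.6, 36.0, 46.1 and 48.04 CPM at 0.1 mg/kg, and its 6 mg/kg libraries were at 44.3 to 87.9 CPM, so the groups overlapped. The log2 difference was 0.73 (SE 0.189, edgeR adjusted p 0.0388). In all, 10 genes of the list were higher at an unadjusted p under 0.05, against 11.6% of all genes. This number was 16 and 12 with the libraries high in cortical neuron and in choroid plexus markers left out, against 12.5 and 12.3%, and 5 when GC content and length entered as an offset, against 6.40%. Opalin (0.67, SE 0.202, edgeR adjusted p 0.0659), Pllp (0.51, SE 0.153, 0.0667) and Sox10 (0.48, SE 0.148, 0.0694) followed and did not pass. Opalin was at 14.3, 18.5, 23.4, 24.6 and 24.7 CPM against 23.2 to 45.3 CPM. Pllp, the tetraspan protein plasmolipin, was at 50.2, 53.7, 73.1, 82.2 and 89.4 CPM against 85.5 to 123 CPM. Sox10 was at 58.5, 71.8, 72.7, 81.7 and 93.0 CPM against 95.2 to 117 CPM.

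The call of Hapln2 rested on the fit. When GC content and transcript length entered the fit as an offset, its log2 difference was 0.41 (SE 0.200, edgeR adjusted p 0.376), and it did not pass without replicate 23, 24, 25 or 29 at 0.1 mg/kg or replicate 52, 54 or 55 at 6 mg/kg (edgeR adjusted p 0.0533 to 0.130). Without one of these replicates its log2 difference was 0.61 to 0.82, so its size stayed near the 0.73 of all libraries. In the other direction, 9 genes of the list passed with DESeq2, against 3.09% of all genes higher, and 8 with a surrogate variable, against 5.13%. With the 2 groups fitted alone 4 passed, against 2.83%. Without replicate 28 the number was 4, against 226 of all 15085 genes tested, and without replicate 58 it was 2, against 1.52%. With the libraries high in cortical neuron markers left out 6 passed, against 2.80%, and with those high in choroid plexus markers left out 6 passed, against 2.12%.

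Over dose rank (vehicle, 0.1, 1 and 6 mg/kg taken as equal steps), all 30 striatum slopes were above 0, with a median of 0.11 log2 units per step. No slope passed, against 0% of all genes rising, and 10 had an unadjusted p under 0.05, against 7.05% of all genes. The number was 12 and 9 with the libraries high in cortical neuron and in choroid plexus markers left out, against 8.98 and 7.05%, and 4 when GC content and length entered as an offset, against 5.12%. The smallest p values were those of Hapln2 (slope 0.26, SE 0.062, edgeR adjusted p 0.240), Olig1 (0.15, SE 0.044, 0.267), Opalin (0.22, SE 0.071, 0.276) and Mag (0.17, SE 0.056, 0.282). With the dose in mg/kg as the scale in place of rank, 6 genes of the list passed, against 6.38% of all genes rising, among them Hapln2, Olig1 and Mag. This slope, the rank slope and the comparisons with vehicle share libraries, so they are not independent of each other. The list deviated as a block in single libraries, so a count of signs in a dose comparison is not a count of independent observations.

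In the prefrontal cortex no gene of the list passed at 6 mg/kg, against 0% of all genes higher. Of the 30 log2 differences 28 were above 0, with a median of 0.24, and 9 were higher at an unadjusted p under 0.05, against 4.28% of all genes. These 9 were Aspa, Opalin, Tmem88b, Olig1, Bcas1, Tspan2, Trf, Mal and Enpp6. Sox10 (-0.03) and Myrf (-0.02), the factors that act on myelin genes, were the 2 with a negative difference.

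Aspa was at 6.34, 7.02, 7.60 and 11.8 CPM in vehicle and between 9.40 and 13.5 CPM, median 12.7, at 6 mg/kg, a log2 difference of 0.56 (SE 0.173, edgeR adjusted p 0.332). Opalin was at 10.003, 11.7, 12.4 and 14.4 CPM against 13.2 to 21.1 CPM, median 16.8, a log2 difference of 0.47 (SE 0.162, edgeR adjusted p 0.383). Tmem88b, a transmembrane protein enriched in oligodendrocytes, was at 36.8, 39.6, 51.6 and 52.4 CPM against 50.8 to 66.9 CPM, median 56.4, a log2 difference of 0.34 (SE 0.126, edgeR adjusted p 0.423). Olig1 was at 89.3, 89.6, 108 and 129 CPM against 121 to 144 CPM, median 131, a log2 difference of 0.34 (SE 0.139, edgeR adjusted p 0.459). The groups overlapped for each of the 4. In 0 of 30 genes was every library at 6 mg/kg above every vehicle library, against 1.21% of all genes. The number higher at an unadjusted p under 0.05 turned on single libraries. It was 2 without vehicle replicate 3, 3 without vehicle replicate 7, 18 without vehicle replicate 8 and 5 without replicate 53 at 6 mg/kg, against 3.02 to 4.85% of all genes. The summed haemoglobin and other blood markers were at 43.2 to 598 CPM in these vehicle libraries and 12.6 to 82.1 CPM at 6 mg/kg, and the summed striatal neuron markers at 1174 to 3121 CPM and 1674 to 2917 CPM. The summed cortical neuron markers were at 1962 to 2449 CPM and 1492 to 2124 CPM, with 5 of 6 log2 differences negative and 2 lower at an unadjusted p under 0.05. The part of these in the levels was not tested.

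At 1 mg/kg 0 of 30 genes passed in the prefrontal cortex and 1 was higher at an unadjusted p under 0.05, against 0% and 4.28% of all genes. It was Bcas1, a protein of newly myelinating oligodendrocytes, at 49.2, 58.3, 58.5 and 77.4 CPM in vehicle and 65.3 to 89.9 CPM at 1 mg/kg, a log2 difference of 0.35 (SE 0.136, edgeR adjusted p 0.588). Olig1 (0.28), Nkx2-2 (0.54) and Olig2 (0.24) came next with the same edgeR adjusted p of 0.588. Without vehicle replicate 8, 11 genes were higher at the unadjusted threshold, against 4.96% of all genes, and without replicate 48 there were 4, against 4.34%. At 0.1 mg/kg 0 passed and 4 were higher at the unadjusted threshold, against 0% and 3.40% of all genes. They were Bcas1 (0.37, SE 0.141), Olig2 (0.32, SE 0.132), Hapln2 (0.44, SE 0.206) and Mag (0.26, SE 0.125), each with an edgeR adjusted p of 0.742. Bcas1 was at 62.3, 66.7, 67.9, 91.9 and 105 CPM at 0.1 mg/kg, so its groups overlapped. Without vehicle replicate 8 the number at 0.1 mg/kg was 12, against 3.90% of all genes, and without replicate 23 it was 7, against 5.42%. It was 1 without vehicle replicate 3, 4 or 7, against 2.06 to 3.04%. Without replicate 24 it was 1, and 2 without replicate 25 or 28, against 2.10 to 2.74%. The 3 doses share the 4 vehicle libraries, of which replicates 3 and 7 were low in nearly the whole list.

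Between 6 and 0.1 mg/kg no prefrontal cortex gene of the list passed, against 0% of all genes higher, and 3 were higher at an unadjusted p under 0.05, against 3.96%. The number was 6 when GC content and length entered as an offset and 6 with a surrogate variable, against 4.89 and 5.20%. Opalin was at 7.51, 10.1, 10.8, 11.6 and 15.4 CPM in the 0.1 mg/kg group, against 13.2 to 21.1 CPM, a log2 difference of 0.59 (SE 0.152, edgeR adjusted p 0.124). It passed with DESeq2 (adjusted p 0.0371, against 0.102% of all genes higher) and with a surrogate variable (edgeR adjusted p 0.0168, against 0.121%). Tmem88b (0.30, edgeR adjusted p 0.367), Aspa (0.33, 0.481) and Enpp6 (0.46, 0.565) followed. Over dose rank 28 of 30 slopes were above 0, 0 passed and 5 had an unadjusted p under 0.05, against 0% and 4.21% of all genes. Of these slopes 11 had an unadjusted p under 0.05 without vehicle replicate 8, 3 without vehicle replicate 3 and 8 without replicate 25, 42 or 58, against 4.12 to 5.02%. With a surrogate variable Opalin (edgeR adjusted p 0.0474) and Tmem88b (0.0471) passed, 2 of 30, against 0.162% of all genes rising. Opalin (0.19 log2 units per step, SE 0.051, edgeR adjusted p 0.164) and Aspa (0.17, SE 0.053, 0.258) had the smallest p, then Tmem88b (0.11, 0.290) and Olig1 (0.10, 0.431).

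Whether the dose effect differed between the regions was tested as an interaction in the fit of all 42 libraries. At 6 mg/kg 0 of 30 interactions passed and 0 had an unadjusted p under 0.05, against 0% and 6.85% of all genes. The smallest p were those of Aspa, with a striatum effect below that of the prefrontal cortex (log2 -0.50, SE 0.331, edgeR adjusted p 0.739), and of Hapln2, with a striatum effect above it (0.43, SE 0.297, 0.745), Sox10 (0.29, 0.758) and Mag (0.31, 0.763). At 1 mg/kg 0 passed and 1 had an unadjusted p under 0.05, against 0% and 6.56%. It was Nkx2-2, at 2.66 to 6.33 CPM in the prefrontal cortex and 6.42 to 11.8 CPM in the striatum at that dose, and its interaction was -0.81 (SE 0.325) at an edgeR adjusted p of 0.721. Ugt8a (0.58), Sox10 (-0.34) and Ermn (0.59) followed. At 0.1 mg/kg 0 passed and 0 were under the unadjusted threshold, against 0% and 2.79%, and 29 of 30 interactions were negative, with a median of -0.17. The list deviated as a block in single libraries, so these signs at 0.1 mg/kg were not independent of each other. Hapln2 (-0.44), Aspa (-0.48), Mbp (-0.32) and Nkx2-2 (-0.46) had the smallest p there, each with an edgeR adjusted p of 1.00. These counts moved when libraries were left out, with 0 interactions passing. Without the striatum libraries high in cortical neuron markers 2 interactions at 6 mg/kg (both negative), 6 at 1 mg/kg (all positive) and 3 at 0.1 mg/kg (all negative) had an unadjusted p under 0.05, against 9.51, 9.23 and 2.39% of all genes. Without those high in choroid plexus markers there were 2 at 1 mg/kg and 1 at 0.1 mg/kg, all negative, against 7.11 and 3.23%. Without vehicle replicate 8 in both regions 5 at 0.1 mg/kg were negative, against 2.47%. Without replicate 50 in both regions 3 interactions at 1 mg/kg were positive and 1 negative, against 5.80 and 6.57% of all genes.

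Other genes of the same biology were followed through 5 further lists. Of 30 further myelin and mature oligodendrocyte genes, 28 were higher and 1 lower in the striatum averaged over dose groups by edgeR's adjusted p. As above, 29.1% of all genes were higher and 27.1% lower in that comparison. The 3 with the smallest p were Plekhb1 (log2 difference 0.90, SE 0.067), the actin-severing protein gelsolin Gsn (0.75, SE 0.060) and the semaphorin receptor Plxnb3 (0.96, SE 0.083). At 6 mg/kg 0 of 30 passed in either region by edgeR's adjusted p. The smallest p were those of the chaperone Cryab in the prefrontal cortex (0.44, SE 0.134, edgeR adjusted p 0.327, and 0.0167 with a surrogate variable) and of the deacetylase Sirt2, abundant in myelin, in the striatum (0.33, SE 0.096, edgeR adjusted p 0.208).

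Of 18 genes of precursor and differentiating cells, 12 were higher and 1 lower in the striatum (29.1 and 27.1% of all genes), led by Cacng4 (log2 difference 0.90, SE 0.076), C1ql1 (1.01, SE 0.093) and the sialidase Neu4 (0.65, SE 0.072). The precursor list had a median log2 difference of 0.28 in vehicle, where 6 of 18 passed, all higher, against 10.6% of all genes. At 6 mg/kg none of the 18 passed in the prefrontal cortex (smallest p Cspg4, -0.19, SE 0.113, edgeR adjusted p 0.628) or in the striatum (C1ql1, 0.37, SE 0.158, edgeR adjusted p 0.267). The difference of C1ql1 turned to -0.046 (SE 0.166) when GC content and length entered as an offset.

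Genes of myelin lipid synthesis did not share 1 direction. Of 18, 8 were higher and 7 lower in the striatum, both shares above those of all genes (29.1 and 27.1%). The ceramide synthase Cers2, which makes the very long chains of myelin lipids, was higher (log2 difference 0.73, SE 0.062), and the cholesterol enzyme Hmgcs1 (-0.66, SE 0.044) was lower. None passed at 6 mg/kg; Sqle had the smallest p in the prefrontal cortex (-0.24, SE 0.090, edgeR adjusted p 0.423).

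Of 17 growth factor signals to oligodendrocytes, 7 were higher and 6 lower in the striatum, against 29.1 and 27.1% of all genes. The neurotrophin Bdnf (log2 difference -2.17, SE 0.115) and Lingo1 (-1.58, SE 0.106), an inhibitor of myelination found on neurons, were lower, and the adhesion receptor Adgrg1 (0.94, SE 0.064) was higher. At 6 mg/kg none passed by edgeR's adjusted p. Igf1, a growth factor that promotes myelination, had the smallest p in the striatum (-1.06, SE 0.221, edgeR adjusted p 0.208), and Pdgfb, a ligand of the platelet-derived growth factor receptors, in the prefrontal cortex (-0.56, SE 0.102, edgeR adjusted p 0.104). Pdgfb passed with DESeq2 (adjusted p 0.000724), with a surrogate variable (edgeR adjusted p 0.00994) and without replicate 54 at 6 mg/kg (edgeR adjusted p 0.00549). Of 10 thyroid hormone signalling genes, 1 was higher and 5 were lower in the striatum, against the same 29.1 and 27.1%. The deiodinase Dio2, which makes the active hormone (-0.84, SE 0.094), Hr (-0.59, SE 0.071) and Klf9 (-0.41, SE 0.075) led. None passed at 6 mg/kg by edgeR's adjusted p, with the receptor Thra in the prefrontal cortex (-0.23, SE 0.098, edgeR adjusted p 0.461, and 0.0119 with a surrogate variable) and Dio2 in the striatum (-0.59, SE 0.204, edgeR adjusted p 0.213) at the smallest p.

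Markers of some other cells differed between the regions as well. The 6 general neuron markers summed to 5693 to 6754 CPM in the prefrontal cortex and 3557 to 4967 CPM in the striatum, without overlap, with 4 of 6 lower in the striatum by edgeR's adjusted p, Snap25 and Syt1 being the most abundant. The 5 choroid plexus markers summed to 5.05 to 42.4 CPM and 21.5 to 4290 CPM, 5 of 5 higher in the striatum, with Ttr and Clic6 the most abundant and Kcne2 at 0 in 16 libraries. The 6 astrocyte markers gave 3 higher and 1 lower, and the 6 microglia markers 1 higher and 0 lower, against 29.1% of all genes higher and 27.1% lower. With the striatum libraries high in cortical neuron markers left out, 30 of 30 genes of the list passed in vehicle, against 11.2% of all genes higher, and with those high in choroid plexus markers left out 28 did, against 11.3%. The part of neuron markers in the region difference was not tested.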

How the data were processed

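RNA-seq libraries were grouped by the region and treatment in their labels. The authors deposited whole-number read counts per gene with Entrez identifiers. The submitters' processing notes name HISAT2, FastQC and mm10. The counting tool and use of strand are not given in the sources used here, so a gene and an overlapping antisense gene cannot be told apart. The 20 liver libraries were not used.

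Counts entered quasi-likelihood fits of edgeR 4.0.16 (R 4.3.3, filterByExpr, trimmed mean of M values scaling, robust dispersions), all 42 libraries together for region differences and interactions and the 21 of a region for doses. Benjamini-Hochberg adjustment ran over all genes tested, and an adjusted p under 0.05 counts as passing. A standard error is the log2 difference divided by the square root of F. No pair of libraries of the same region and dose group agreed within sampling noise (chi-square per degree of freedom at least 4.84 for the prefrontal cortex and 2.94 for the striatum). The fits were tested on simulated data. Lengths came from GENCODE vM21 transcripts and promoters from RefSeq.

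The genes, lists and tests were chosen with earlier results of these data known. Named with values are the genes with the 6 largest and 6 smallest region differences, the 5 highest levels per region and the 4 smallest p per dose comparison, and for each further list the 3 smallest p between regions and the smallest at 6 mg/kg. A gene that this rule takes is not reported here. Alternatives were DESeq2 1.42.0, its size factors, no filter or a mean of 10 counts, a GC and length offset, a surrogate variable (sva 3.50.0), only the groups compared, a replicate block, a slope over mg/kg and leaving out libraries. Leaving out the striatum libraries above 600 CPM of cortical neuron or 1000 CPM of choroid plexus markers was added after seeing the data.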

Additional observations from a re-analysis of the deposited data

Results flagged for a closer look

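In each region and dose group, every gene of the list and the summed list were searched for a library that lies far from the rest, 248 sets of 4 to 6 libraries in all, of which chance flags about 5% (12.4 sets). A library stood apart in 8. In the prefrontal cortex Gal3st1 in vehicle was at 9.51 CPM in replicate 3 (the others 12.2 to 12.5), and Myrf at 6 mg/kg was at 62.3 CPM in replicate 53 (34.1 to 43.6). In the striatum in vehicle, Aspa was at 9.67 CPM in replicate 8 (17.4 to 18.5) and Bcas1 at 85.8 CPM in the same replicate (120.1 to 124). Fa2h at 1 mg/kg was at 116 CPM in replicate 45 (57.6 to 73.1). At 6 mg/kg in the striatum, Mobp was at 1116 CPM in replicate 52 (701 to 815), Olig2 at 64.9 CPM in replicate 55 (48.6 to 53.7) and Myrf at 60.8 CPM in replicate 54 (108 to 115). Replicates 8, 45 and 52 are among the libraries high in cortical neuron or choroid plexus markers. No interaction between region and dose passed.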

How the results depend on the processing

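Between regions in vehicle, 23 to 30 of the 30 genes passed under 13 alternatives (28 as reported), and averaged over dose groups 30 passed under each of 29. For each dose against vehicle and each interaction, 0 of the 30 genes passed under the alternatives run. Of 6 against 0.1 mg/kg in the prefrontal cortex (0 as reported), 1 gene passed with DESeq2 and 1 with a surrogate variable, and of the dose slope there 2 passed with a surrogate variable. Of 6 against 0.1 mg/kg in the striatum (1 as reported), 0 passed with the GC and length offset, 9 with DESeq2, 8 with a surrogate variable, 4 with only the groups compared and 0 to 4 with a replicate left out. There, 6 passed with the libraries high in cortical neuron markers left out, and 6 with those high in choroid plexus markers left out. Of the striatum slope, 6 passed over mg/kg. The cause was not tested. Numbers recur in the titles of the regions, but same-numbered libraries had a mean correlation of deviations of 0.094 (-0.08 to 0.20), over 0.1 in 12 of 21, against a mean of -0.02 with other numbers, and 12 of 21 correlated best with their own number. This is a hint of pairing from the data. The labels do not say what a number marks, and not every number was over 0.1, so the block was kept as an alternative. With a replicate block 27 genes passed in vehicle (Ugt8a and Enpp6 no longer, edgeR adjusted p 0.0806 and 0.0696, and Gal3st1 newly, 0.0212) and 30 averaged over dose groups, and 0 interactions. Among 2296 values of single genes and lists, 2248 kept direction and side of the threshold, 15 no longer passed, 32 newly passed and 1 reversed, C1ql1 in the striatum at 6 mg/kg (-0.046 with the GC and length offset). Counts were lowest for Enpp6 and Nkx2-2, and what depth limits there was not tested.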
